A study of Mus musculus with 12 samples.

Results

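Oxidative phosphorylation is the set of 5 protein complexes in the inner mitochondrial membrane that pass electrons from NADH and succinate to oxygen and use the resulting proton gradient to make ATP. Its genes were taken here by name from the array's annotation (Nduf genes of the a, b, c, s and v series, Sdha to Sdhd, and gene names starting with Uqcr, Cox4 to Cox8 or Atp5). The rule found 85 genes with 124 probes, out of 34821 gene names and 55681 probes. They comprised 37 genes of complex I, 4 of complex II, 8 of complex III, 18 of complex IV and 18 of complex V. The rule also takes in a pseudogene (Atp5c1-ps) and the assembly or accessory genes Atp5s, Atp5sl and Cox7a2l, and it does not reach Ndufab1. Ndufa4 was kept with complex I by its name, although its protein is now counted as a subunit of complex IV.

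The study set B cells that secrete the regulatory cytokine IL-10 against B cells that do not, in control mice and in mice with allergic asthma to house dust mite (HDM). All samples were spleen B cells of female Balb/c mice, cultured for 2 days with a CD40 agonist with LPS in the final 5 h, then separated by flow cytometry after an assay that captures secreted IL-10 on the cell surface. The 4 groups, with 3 one-colour arrays each, were IL-10+ control and IL-10- control, from control mice, and IL-10+ HDM and IL-10- HDM, from HDM mice. The age of the mice and the treatment of the control mice are not given in the sources used here. Whether the 3 samples in each group are separate animals or cultures is not stated, so p-values measure the spread between these samples, which may be technical.

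Complex I (NADH dehydrogenase) takes electrons from NADH, and complex II (succinate dehydrogenase) takes them from succinate and is also an enzyme of the citric acid cycle. Complex III (the cytochrome bc1 complex) passes them to cytochrome c, complex IV (cytochrome c oxidase) passes them to oxygen, and complex V is the ATP synthase. Most subunits are encoded in the nucleus, a few are encoded in mitochondrial DNA, and complex II has nuclear subunits alone. Activated B cells are known to enlarge their mitochondrial mass as they grow and divide.

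Several nuclear genes of these complexes are known targets of the transcription factors NRF1, GABP (an ETS family factor) and YY1. The windows below show where the letters of these motifs stand in promoters of members described further on, chosen because each holds at least 1 of them. Promoters were the RefSeq windows of 250 bases before to 50 bases after each gene start, on build GRCm38.p6, and 69 of the 85 members had one. Each window is 60 bases, is written 5′ to 3′ on the strand of the gene and lies within 96 bases upstream of the annotated start. Capitals mark a match to a motif, read on either strand.
Ndufa11 (chr17:56717694-56717753, plus strand): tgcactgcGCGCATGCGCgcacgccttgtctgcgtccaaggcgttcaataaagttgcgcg
Sdha (chr13:74350244-74350303, minus strand): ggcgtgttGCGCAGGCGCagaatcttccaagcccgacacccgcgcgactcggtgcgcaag
Sdhd (chr9:50603877-50603936, minus strand): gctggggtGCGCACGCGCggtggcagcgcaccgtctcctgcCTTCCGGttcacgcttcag
Uqcrh (chr4:116075071-116075130, minus strand): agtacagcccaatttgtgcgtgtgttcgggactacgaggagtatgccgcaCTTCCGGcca
Cox6b1 (chr7:30626115-30626174, minus strand): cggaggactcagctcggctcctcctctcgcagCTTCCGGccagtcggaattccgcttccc
Atp5g2 (chr15:102671048-102671107, minus strand): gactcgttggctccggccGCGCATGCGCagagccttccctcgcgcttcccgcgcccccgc
Atp5j (chr16:84835013-84835072, minus strand): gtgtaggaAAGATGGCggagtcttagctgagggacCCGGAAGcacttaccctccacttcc

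The NRF1 motif was searched as GCGCA, any base and GCGC in a row, the ETS and GABP motif as CCGGAAG and the YY1 motif as AAGATGGC, each on both strands. The NRF1 letters were in 17 of the 69 member promoters (24.6%), against 5.19% of the promoters of all 27025 genes in the table and 7.17% of those of 17492 protein-coding genes. The ETS and GABP letters were in 16 (23.2%, against 9.93% and 12.9%), and the YY1 letters in 11 (15.9%, against 3.19% and 3.57%). At least 1 of the 3 was in 38 member promoters (55.1%), against 16.4% of all promoters and 21.0% of the protein-coding ones. By complex, at least 1 motif was in 17 of 32 promoters of complex I, 3 of 3 of complex II, 3 of 5 of complex III, 3 of 13 of complex IV and 12 of 16 of complex V. A match describes letters in a window and is not a site of binding.

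Levels below are log2 of the processed signal minus the 75th percentile of that array, so that 0 is that percentile; they are compared between arrays and not between genes. Differences are log2 differences of group means with their standard error (SE) from limma, fitted over all 24963 genes with a measurable probe. The threshold for a call was 0.05 on the p adjusted by Benjamini-Hochberg for all of these genes. Of the 85 members, 82 passed the filter, a probe well above background on at least 3 of 12 arrays, and 61 were well above background on every array. The 3 that failed were tissue-restricted complex IV genes, Cox7b2, Cox8b and Cox8c. Il10, the gene of the sort, was between 6.42 and 7.57 on the 6 IL-10+ arrays and between -5.43 and 1.12 on the 6 IL-10- arrays. All 9 B cell markers were detected, 8 of them on every array, with a summed log2 level of 6.75 to 8.21. The exception, Cd79a, was at -5.87 on IL-10- HDM array 3 and between 0.78 and 2.54 elsewhere. The lowest Il10 value, -5.43, was on that array too. Of the erythroid markers, Hba-a1 was highest there (1.22) and Alas2 lowest (-6.13).

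The arrays differed in how many genes they detected. The share of tested genes with a signal well above background ran from 73.0% to 90.9% between arrays. The 3 lowest shares were those of IL-10- HDM array 3 (73.0%), IL-10+ control array 2 (78.6%) and IL-10- control array 2 (80.8%). IL-10- HDM array 3 also correlated least with the rest, at a mean r of 0.775, while the other 11 had means of 0.867 to 0.901. Slide 1 held all IL-10+ arrays and IL-10- control arrays 1 and 2. Slide 2 held IL-10- control array 3 and the 3 IL-10- HDM arrays, so the comparison of IL-10+ with IL-10- cells in HDM mice lies across slides. The HDM comparison in IL-10- cells and the interaction lie across slides too, apart from IL-10- control array 3.

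No member was called in any of the 6 comparisons with limma over all genes. Taking the sort (IL-10+ against IL-10-) first in control mice, next in HDM mice and then as the average of these, followed by HDM against control in IL-10+ cells, the same in IL-10- cells and the interaction, the share of all tested genes that was called was 0.016%, 0.168%, 0.268%, 0.00401%, 0.0481% and 0.012%. In the same order, 2, 10, 3, 1, 8 and 5 of the 82 members had an unadjusted p under 0.05, which is 2.44%, 12.2%, 3.66%, 1.22%, 9.76% and 6.10% of them. The shares over all genes tested were 4.06%, 13.3%, 9.17%, 2.28%, 9.13% and 6.46%. In the 2 comparisons with the most such members, the share was near that of all genes.

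In HDM mice most members had a lower level in IL-10+ than in IL-10- cells. There, 55 of 82 had a lower mean in IL-10+ cells, and the median difference was -0.42, against 0.16 over all genes, of which 43.1% were lower. In control mice 33 of 82 were lower in IL-10+ cells, beside 53.2% of all genes, with a median of 0.12 against -0.04. Averaged over both kinds of mice 49 were lower, beside 47.3%, with a median of -0.13 against 0.04. HDM against control had 54 lower in IL-10+ cells, beside 43.7%, with a median of -0.10 against 0.07. In IL-10- cells it had 33 lower, beside 52.1%, with a median of 0.49 against -0.04. The interaction, the sort difference in HDM mice minus that in control mice, was negative for 51, beside 43.9%, with a median of -0.51 against 0.16. These medians are descriptions without a test.

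The array medians show how these shifts compare with the spread between samples. With each member centred on its own mean over the 12 arrays, the median member was at -0.26, 0.57 and -0.03 on IL-10+ control arrays 1 to 3, and at -0.42, 0.55 and -0.19 on the IL-10- control arrays. It was at -0.13, -0.32 and -0.05 on the IL-10+ HDM arrays and at 0.38, 0.09 and 0.91 on the IL-10- HDM arrays. The IL-10- HDM arrays all lay above the IL-10+ HDM arrays, while the 2 control groups overlapped. The pooled SD of these medians within groups was 0.397. The sort in HDM mice, HDM in IL-10- cells and the interaction (-0.42, 0.49 and -0.51) were of about that size, and the other medians (0.12, -0.13 and -0.10) were smaller. The 3 highest medians belonged to the 3 arrays with the lowest shares of genes above background, and the part of that in the result was not tested.

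**Figure D1:**
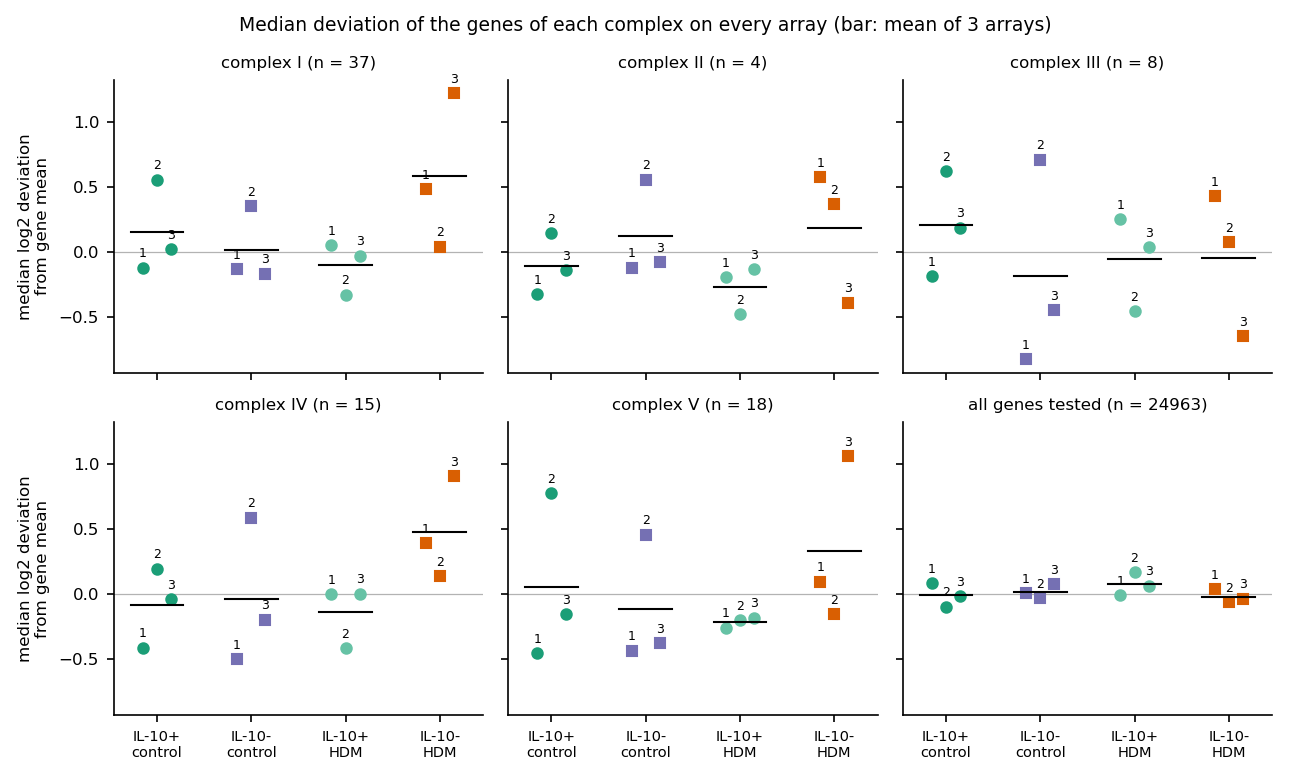
Median log2 deviation of the genes of each complex from their own means, on every array, by group; points are arrays numbered 1 to 3 within a group, black bars are the mean of 3 arrays, and the last panel gives all genes tested. Complexes I, IV and V are highest on IL-10- HDM array 3 (1.22, 0.91 and 1.06), while complexes II and III are at -0.39 and -0.65 there.

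**Figure D2:**
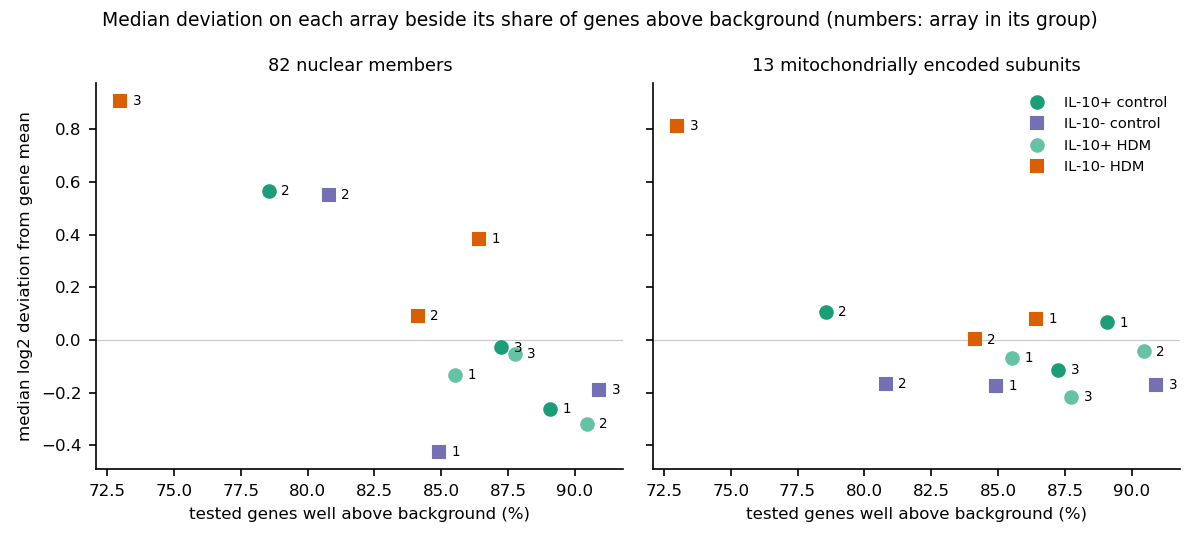
Median log2 deviation on each array (y axis) of the 82 nuclear members (left) and of 13 subunits encoded in mitochondrial DNA (right), beside the percentage of tested genes well above background on that array (x axis); points are arrays, numbered within their group. The nuclear members are highest on the 3 arrays with 73.0%, 78.6% and 80.8% of genes above background, and the mitochondrially encoded subunits are highest on the array with 73.0%.

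Of the 82 members, 39 (47.6%) had their highest value on IL-10- HDM array 3, against 26.6% of all genes. Not all members rose there, as 53 of the 82 were above their own mean. That array also held the lowest value of 13 members, and of 19.6% of all genes. Without it, the median sort difference in HDM mice was -0.29 and the median HDM difference in IL-10- cells was 0.22. The spread of single members within groups had a median SD of 0.92, against 0.82 over all genes, and ranged from 0.15 for Atp5g1 to 2.70 for Ndufc2, an accessory subunit of complex I.

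Complex I, the largest of the 5, had a median sort difference of -0.61 in HDM mice, with 24 of 37 genes lower in IL-10+ cells, and of 0.06 in control mice, with 17 lower. The median was -0.05 in HDM mice without IL-10- HDM array 3, and -0.16 in control mice without IL-10+ control array 2. In HDM mice the IL-10+ and IL-10- arrays did not overlap for 7 complex I genes that were lower and 2 that were higher in IL-10+ cells. Over all members those counts were 15 lower (18.3%) and 4 higher (4.88%), beside 11.2% and 11.4% of all genes.

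Ndufb3, an accessory subunit of the membrane arm of complex I (probe at chr1:58652622-58652681, build mm9), had the smallest p of the complex for HDM in IL-10- cells and for the interaction. Its level was 3.08, 3.20 and 4.38 on the IL-10- HDM arrays, and 1.57, 1.96 and 1.71 on the IL-10+ HDM arrays. It was 2.35, 1.68 and 0.30 on the IL-10- control arrays and 2.27, 2.45 and 2.60 on the IL-10+ control arrays. The IL-10- HDM arrays were thus above all 9 others, and IL-10- control array 3, on the same slide, was the lowest. The HDM difference in IL-10- cells was 2.11 (SE 0.53), a 4.32-fold higher mean, with an adjusted p of 0.29. Between IL-10+ and IL-10- cells in HDM mice the difference was -1.81 (SE 0.53, adjusted p 0.241), and the interaction was -2.81 (SE 0.75, adjusted p 0.683). Without IL-10- HDM array 3 the HDM difference in IL-10- cells was 1.70, and with slide as a block it was 3.25. That block sets the IL-10- HDM arrays against IL-10- control array 3 alone, so the second value rests on that array.

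Ndufc1, a small accessory subunit of complex I (probe at chr3:51209408-51209467, mm9), had the smallest p of its complex in the averaged sort comparison. It was at 0.23, 0.61 and 0.48 on the IL-10+ control arrays and 0.93, 0.13 and 1.32 on the IL-10+ HDM arrays. On the IL-10- control arrays it was at 1.21, 2.33 and 0.34, and on the IL-10- HDM arrays at 2.27, 2.32 and 3.97. The HDM groups did not overlap, and the control groups did through IL-10- control array 3. The averaged difference was -1.46 (SE 0.43, adjusted p 0.29), a 2.75-fold lower mean in IL-10+ cells.

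Ndufa2, an accessory subunit of complex I, had the second smallest p there, with a difference of -0.89 (SE 0.37, adjusted p 0.516). Its means were -0.09 ± 0.45 (SD, n = 3) in IL-10+ control cells against 1.23 ± 0.72 in IL-10- control cells, which did not overlap, and 0.70 ± 0.61 against 1.16 ± 0.74 in HDM mice, which did.

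Ndufa11, a membrane subunit of complex I whose promoter window is shown above, went the other way. It was at -0.05, -0.64 and -1.29 on the IL-10+ HDM arrays and at -4.36, -5.72 and -1.55 on the IL-10+ control arrays, which did not overlap. On the IL-10- arrays it lay between -5.04 and -1.26 in control mice and between -4.61 and -2.64 in HDM mice. The HDM difference in IL-10+ cells was 3.22 (SE 1.19, adjusted p 1.00), and the signal was well above background on 3 of 3 IL-10+ HDM arrays but on 1 of 3 IL-10+ control arrays.

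Other complex I genes are named here after their values were seen. Ndufa5, an accessory subunit, and Ndufs1, the largest iron-sulfur core subunit, both had a lower mean in IL-10+ than in IL-10- cells of HDM mice without overlap. Their differences were -1.10 (SE 0.36, adjusted p 0.28) and -1.03 (SE 0.35, adjusted p 0.292). The Ndufs1 means were 3.13 ± 0.22 and 4.16 ± 0.17 (SD, n = 3), among the tighter values of the complex. Ndufv1, the core subunit that binds NADH, was well above background on 0 of 3 IL-10- HDM arrays and on 2 of 3 IL-10+ HDM arrays. Its mean was 2.67-fold higher in IL-10+ cells there by its background bound, with an adjusted p of 0.365. On the IL-10- control arrays it was at -3.95, -1.65 and -6.75, the last on slide 2 with the IL-10- HDM arrays. Each array of slide 2 lay below each array of slide 1, and the part of the slide in this difference was not tested. The background bound takes, on each array of the dim side, the higher of the probe's own signal and the lowest signal of any probe well above background. The brighter side enters by its plain mean, so the fold is no strict lower limit where some of its arrays are below background.

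**Figure D3:**
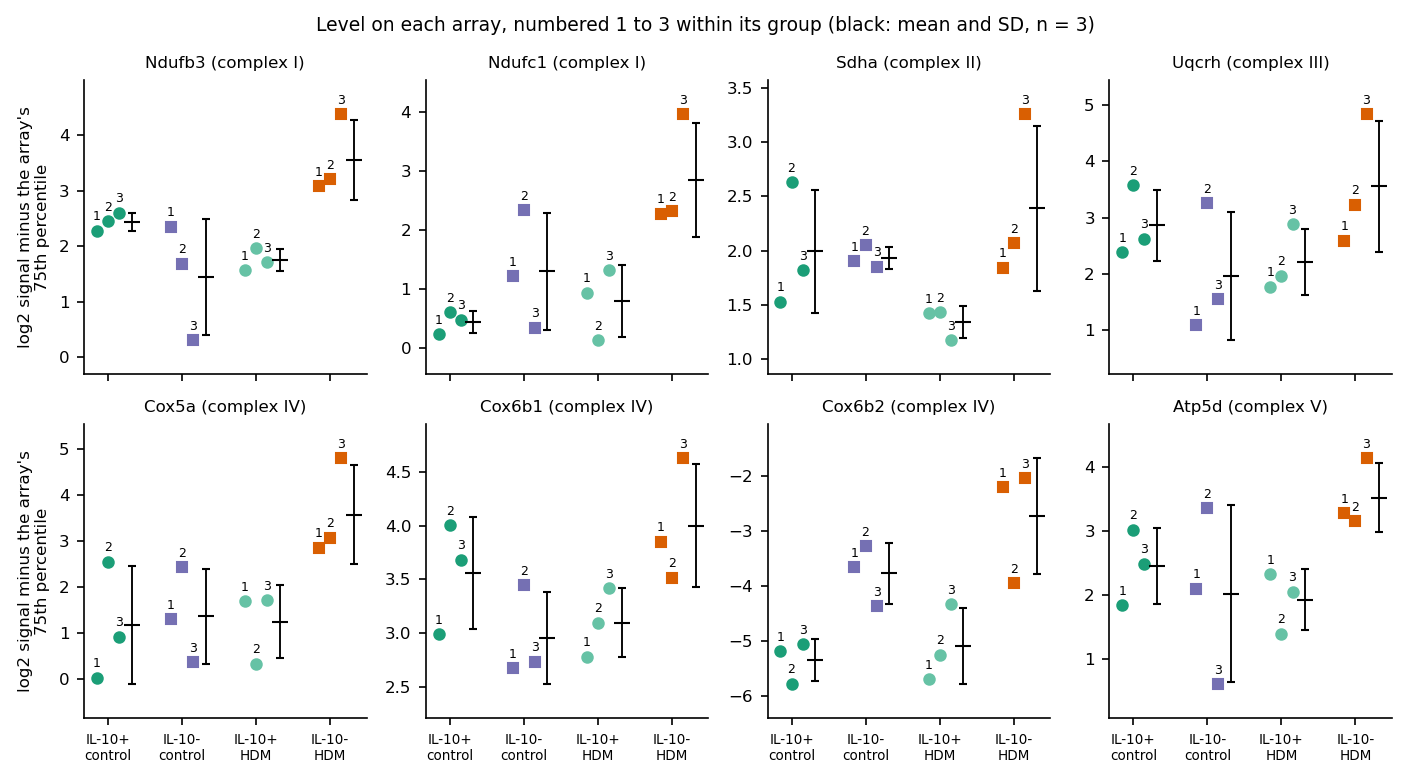
Level of 8 members on each array (y axis, log2 signal minus the 75th percentile of the array) by group; points are arrays numbered 1 to 3 within a group, and black marks are the mean and SD of 3 arrays. In each of the 8 panels IL-10- HDM array 3 is the highest of the 12 points (Ndufb3 4.38, Ndufc1 3.97, Sdha 3.26, Uqcrh 4.85, Cox5a 4.80, Cox6b1 4.63, Cox6b2 -2.04, Atp5d 4.14). The 8 are a choice among the named members and do not stand for all. Of the 82 members, 39 were highest and 13 lowest on that array.

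Complex II has 4 subunits, all measured on every array. Sdha, the flavoprotein that oxidises succinate (probe at chr13:74460310-74460369, mm9), was at 1.43, 1.43 and 1.17 on the IL-10+ HDM arrays and 1.84, 2.07 and 3.26 on the IL-10- HDM arrays, without overlap. In control mice it was at 1.53, 2.63 and 1.82 in IL-10+ cells and 1.90, 2.05 and 1.85 in IL-10- cells, with overlap. The sort difference in HDM mice was -1.05 (SE 0.43, adjusted p 0.345). Leaving out IL-10- HDM array 3 gave -0.61. The averaged difference was -0.49 (SE 0.30, adjusted p 0.66) and the interaction -1.10 (SE 0.60, adjusted p 0.758), or -0.28 and -0.67 without that array.

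Sdhb, the iron-sulfur subunit, had the smallest averaged p of complex II, with 1.45, 1.78 and 1.88 on the IL-10+ control arrays and 2.67, 2.80 and 1.97 on the IL-10- control arrays. It was at 1.66, 1.30 and 2.01 on the IL-10+ HDM arrays and 3.38, 2.64 and 1.23 on the IL-10- HDM arrays. The control groups did not overlap and the HDM groups did. The averaged difference was -0.77 (SE 0.36, adjusted p 0.569), but a second probe of the gene, not used, gave 0.90, and the mean over both probes gave 0.07.

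Of the membrane anchors, Sdhd had an averaged sort difference of -0.22 (SE 0.29, adjusted p 0.847), and an HDM difference in IL-10- cells of 0.72 (SE 0.42, adjusted p 0.609). The first was -0.06 without IL-10- control array 2 and the second 0.40 without IL-10- control array 3. Its HDM groups did not overlap, with means of 1.63 ± 0.24 (SD, n = 3) for IL-10+ and 2.32 ± 0.41 for IL-10- cells. Sdhc had an averaged difference of 0.03 (SE 0.39), with an interval of -0.84 to 0.90. Of the 4 averaged differences, 3 were negative and 1 positive, and the smallest adjusted p was 0.569.

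Complex III had a median sort difference of -0.17 in HDM mice and 0.24 in control mice over 8 genes, and 0.02 in HDM mice under quantile normalization. Both signs turned with 1 array left out, to 0.29 in HDM mice without IL-10- HDM array 1 and to -0.22 in control mice without IL-10- control array 1. Uqcrh, the hinge protein that binds cytochrome c1 (probe at chr4:115739571-115739630, mm9), was at 2.59, 3.23 and 4.85 on the IL-10- HDM arrays and 1.77, 1.97 and 2.88 on the IL-10+ HDM arrays. It was at 1.09, 3.26 and 1.55 on the IL-10- control arrays and 2.39, 3.58 and 2.63 on the IL-10+ control arrays. Both pairs of groups overlapped. The HDM difference in IL-10- cells was 1.59 (SE 0.71, adjusted p 0.544) and the interaction -2.25 (SE 1.01, adjusted p 0.757). They were 0.95 and -1.61 without IL-10- HDM array 3.

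Uqcrc2, a core protein of complex III, was at 2.48, 2.61 and 2.57 on the IL-10+ HDM arrays and 2.85, 3.98 and 3.00 on the IL-10+ control arrays, without overlap. The HDM difference was -0.72 (SE 0.41, adjusted p 1.00), and the averaged sort difference was 0.23 (SE 0.29). The first was -0.37 with IL-10+ control array 2 left out, and the second was 0.04 without IL-10- HDM array 3. Uqcr11, a small subunit, was between -0.54 and 0.93 on 11 arrays and at -5.64 on IL-10- HDM array 3. That array set its averaged difference, which was 0.71 (SE 0.98) with it and -0.35 without it.

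Complex IV had a median sort difference of -0.37 in HDM mice and -0.20 in control mice over its 15 genes that passed the filter. The control value was 0.24 without IL-10- control array 2. Cox5a, a nuclear subunit present in all tissues (probe at chr9:57379593-57380141, mm9), was at 2.85, 3.07 and 4.80 on the IL-10- HDM arrays. It was at 1.31, 2.43 and 0.37 on the IL-10- control arrays, 1.70, 0.34 and 1.72 on the IL-10+ HDM arrays and 0.03, 2.56 and 0.93 on the IL-10+ control arrays. The IL-10- HDM arrays lay above the other 9. The HDM difference in IL-10- cells was 2.21 (SE 0.80, adjusted p 0.492), the sort difference in HDM mice was -2.32 (SE 0.80, adjusted p 0.302) and the averaged sort difference was -1.26 (SE 0.57, adjusted p 0.546).

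Cox6b1, the ubiquitous form of a subunit on the outer face of complex IV (probe at chr7:31409575-31411071, mm9), was at 3.85, 3.52 and 4.63 on the IL-10- HDM arrays and 2.67, 3.44 and 2.73 on the IL-10- control arrays. It was at 2.78, 3.09 and 3.42 on the IL-10+ HDM arrays and 2.99, 4.01 and 3.68 on the IL-10+ control arrays. The IL-10- HDM arrays overlapped neither other HDM nor other IL-10- arrays. The interaction was -1.51 (SE 0.59, adjusted p 0.757).

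Cox6b2, the testis form of the same subunit (probe at chr7:4703488-4703547, mm9), had the smallest p of all members in the averaged sort comparison. It was at -5.19, -5.78 and -5.05 on the IL-10+ control arrays and -5.69, -5.25 and -4.33 on the IL-10+ HDM arrays, none of which was well above background. It was at -3.66, -3.27 and -4.37 on the IL-10- control arrays, 1 of them above background, and at -2.20, -3.95 and -2.04 on the IL-10- HDM arrays, all above it. The averaged difference was -1.97 (SE 0.41, adjusted p 0.104), and by its background bound the mean was 1.89-fold higher in IL-10- cells. The highest IL-10+ array, at -4.33, lay just above the lowest IL-10- array, at -4.37. In HDM mice it was at least 2.44-fold higher (adjusted p 0.174). Leaving out IL-10- HDM array 2 brought both below the threshold, with adjusted p of 0.0480 in HDM mice and 0.0310 averaged.

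The paired isoforms of complex IV include forms known from heart and muscle, Cox6a2 and Cox7a1, which were well above background on 9 and 12 of 12 arrays. Cox6a2 ranged from -4.11 to -1.33 and Cox7a1 from -3.36 to 0.38, each with overlap in control mice. Cox7a1 did not overlap in HDM mice, with 0.38, -1.77 and -2.27 in IL-10+ and -2.56, -2.92 and -2.88 in IL-10- cells. The ubiquitous Cox4i1 ranged from 1.45 to 4.87 and Cox7a2 from 1.93 to 3.93, both with overlap in the sort and HDM comparisons. Cox6a1 ranged from -2.08 to 0.23 on 11 arrays and was at -6.09 on IL-10- HDM array 3. Cox4i2, known from lung and low oxygen, ranged from -1.83 to 0.52. Ndufa4 ranged from -0.52 to 2.71 and its relative Ndufa4l2, known as a low-oxygen gene, from -6.11 to -3.26. Cox7c, a small subunit, had the smallest p of its complex for HDM in IL-10+ cells, with 3.35 ± 0.14 against 2.77 ± 0.50 (SD, n = 3), a difference of 0.59 (SE 0.37, adjusted p 1.00). Its other probes gave -0.21 and 1.13.

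Complex V had a median sort difference of -0.22 in HDM mice and 0.19 in control mice over 18 genes. It was -0.62 in HDM mice without IL-10- HDM array 2 and -0.10 in control mice without IL-10+ control array 2. Atp5d, the delta subunit of the rotating F1 stalk (probe at chr10:79608230-79608289, mm9), was at 3.27, 3.15 and 4.14 on the IL-10- HDM arrays and 2.32, 1.39 and 2.05 on the IL-10+ HDM arrays, without overlap. It was at 2.09, 3.36 and 0.60 on the IL-10- control arrays and 1.84, 3.01 and 2.49 on the IL-10+ control arrays. In IL-10- cells the mean was 2.83-fold higher in HDM than in control mice (adjusted p 0.535), and the interaction was -2.03 (SE 0.92, adjusted p 0.757). The log2 HDM difference in IL-10- cells was 2.92 with slide as a block and 0.79 without IL-10- control array 3. The first value sets the IL-10- HDM arrays against that control array alone.

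Atp5b, the catalytic beta subunit, had an averaged sort difference of -1.02 (SE 0.50, adjusted p 0.587), from means of 0.69 ± 1.01 and 1.23 ± 0.84 in control mice and 0.24 ± 0.35 and 1.74 ± 1.25 in HDM mice, IL-10+ first. Atp5j, the coupling factor of the peripheral stalk, was between -1.95 and 0.13 on 11 arrays and at -6.24 on IL-10- HDM array 3, where it was not well above background. Its averaged difference was 1.43 (SE 0.81, adjusted p 0.639), and 0.57 without that array. Atp5o, the subunit that links the stalk to F1, had an HDM difference in IL-10+ cells of -1.51 (SE 1.05, adjusted p 1.00), with 1 array, IL-10+ control array 2, at 2.06 and the other 11 between -3.36 and 0.86. Without that array the difference was -0.63.

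The 3 genes of subunit c, the proton-carrying ring, differed in how steady they were. Atp5g1, by the probe used, had the smallest spread of all 82 members, between 4.61 and 5.02 on the 12 arrays, with group means from 4.76 to 4.89. Its other probe was less steady, from -0.22 to 1.59, and gave a sort difference in HDM mice of -0.74, against 0.05 for the probe used. Atp5g2 ranged from -0.12 to 2.34. Atp5g3 ranged from -5.88 to -0.87, was well above background on 4 of 12 arrays, and on none of the IL-10+ HDM arrays.

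**Figure D4:**
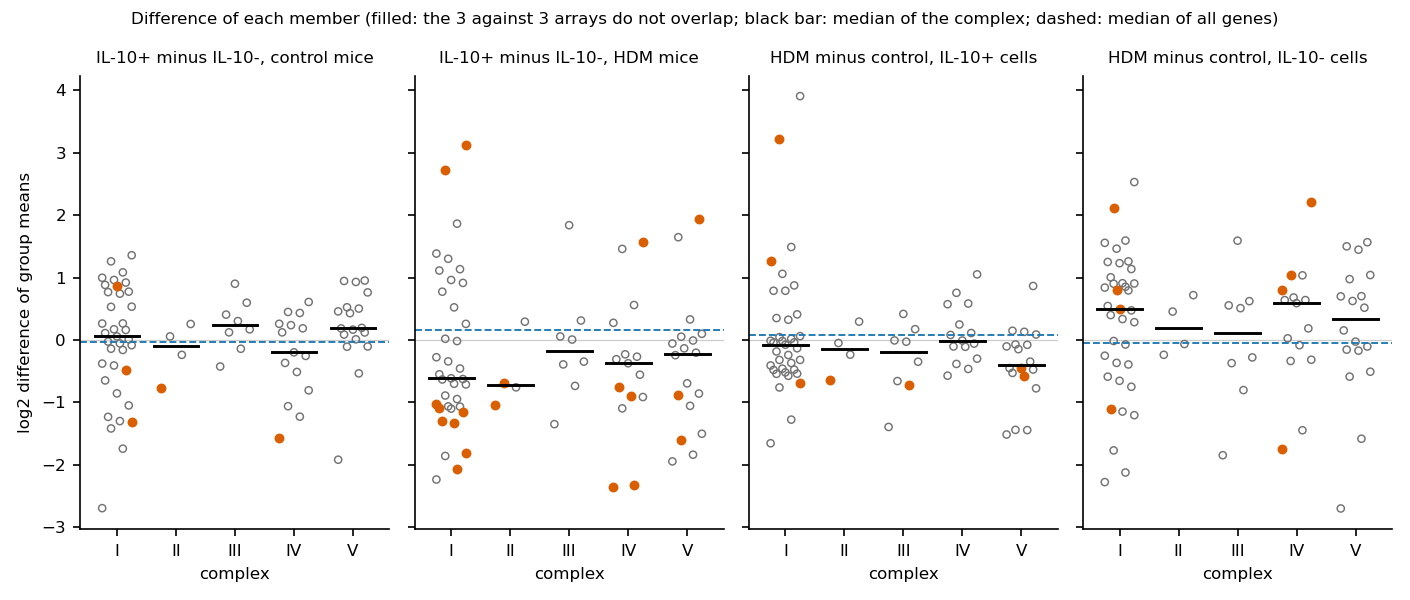
Log2 difference of each member (y axis) by complex (x axis) in 4 comparisons; filled points are members whose 3 against 3 arrays do not overlap, black bars are medians of a complex and the dashed line is the median over all genes. In HDM mice the medians of the 5 complexes, from -0.73 to -0.17, lie below the median of all genes (0.16), and in IL-10- cells the medians of the HDM difference, from 0.12 to 0.59, lie above theirs (-0.04). Complex III does not keep its side without IL-10- HDM array 1 (0.29 in HDM mice, -0.36 in IL-10- cells).

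The counts of members whose groups did not overlap can be set beside the same share over all genes. In control mice 1 member was higher in IL-10+ cells (1.22%, against 4.75% of all genes) and 4 were lower (4.88%, against 4.7%). For HDM in IL-10+ cells 2 were higher (2.44%, against 5.86%) and 5 lower (6.10%, against 3.75%). For HDM in IL-10- cells 6 were higher (7.32%, against 5.72%) and 2 lower (2.44%, against 6.16%). In the averaged comparison of 6 with 6 arrays, 0 members failed to overlap, against 0.701% of all genes higher and 0.236% lower. The 6 higher in IL-10- cells of HDM mice were Ndufa5, Ndufb3, Ndufs1, Cox5a, Cox6b1 and Cox6c. They belong to complexes I and IV, which hold most of the members, 37 and 15 of the 82 tested. The comparison with IL-10+ cells of HDM mice uses the same 3 IL-10- HDM arrays, so the 2 results are not independent.

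The probes of a gene did not always point the same way. Of the 28 members with 2 or more measurable probes, all probes had the same sign in 19 for the sort in HDM mice, 17 for the sort in control mice, and 18 for HDM in IL-10- cells. Uqcrh gave -1.35 and -1.56 in HDM mice with its 2 probes, and the 6 probes of Atp5l, subunit g of the ATP synthase, gave -0.99 to -0.20, although 1 of each gene's probes is annotated on another chromosome than the gene's (2 for Uqcrh, X for Atp5l). Uqcr10, a small subunit of complex III, gave -0.74 with the probe used and 1.96 and 1.92 with the others. Cox7c gave -0.37, -0.84 and 3.12. The difference of a single gene therefore depends on the choice of probe. The member median in HDM mice moved less, at -0.37 as a mean over probes and -0.42 with the probes used.

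**Figure D5:**
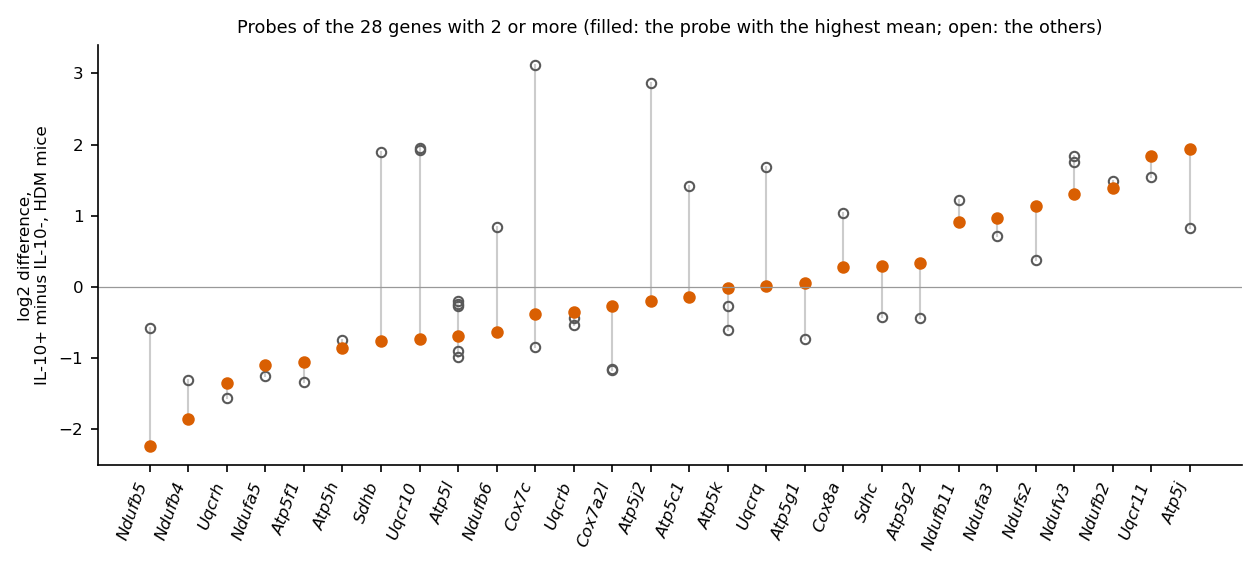
Log2 difference of IL-10+ minus IL-10- cells in HDM mice (y axis) for every measurable probe of the 28 members with at least 2 (x axis); filled points are the probe with the highest mean, which was used, and open points the others. The probes lie on the same side of 0 for 19 genes and on both sides for 9.

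The subunits encoded in mitochondrial DNA form the core of complexes I, III, IV and V and were measured with 13 of 13 genes on all arrays. In control mice 13 of 13 had a higher mean in IL-10+ cells, with a median difference of 0.20, against -0.04 over all genes. In HDM mice 11 of 13 had a lower mean in IL-10+ cells, with a median of -0.42, against 0.16. In IL-10- cells 13 of 13 had a higher mean in HDM mice, with a median of 0.55, against -0.04. Without IL-10- HDM array 3 these became 9 of 13 lower with a median of -0.16 and 12 of 13 higher with a median of 0.23. Leaving out IL-10+ control array 2 left 11 of 13 higher in the sort in control mice. None of the 13 was called. They were measured on the same arrays, so their shared signs are not 13 independent results. ND3, a membrane subunit of complex I chosen after its values were seen, was at 3.79, 3.67 and 5.45 on the IL-10- HDM arrays and 2.98, 3.43 and 3.09 on the IL-10- control arrays, without overlap. The HDM difference in IL-10- cells was 1.14 (SE 0.48, adjusted p 0.53), and the sort difference in HDM mice was -1.49 (SE 0.48, adjusted p 0.279). Without IL-10- HDM array 3 they were 0.57 and -0.92. The median mitochondrial gene, centred on its mean, was at 0.81 on IL-10- HDM array 3 and between -0.21 and 0.11 on the other 11 arrays. The array annotation places the COX2 probe on chromosome 1 and not on the mitochondrial genome.

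The other genes of the pathway gave no call in any comparison. Over all genes the sort in HDM mice, which lies across slides, had a median difference of 0.16, with 43.1% lower in IL-10+ cells. In HDM mice the median sort difference was -0.32 over 76 genes of the mitochondrial ribosome, with 48 lower in IL-10+ cells, and -0.32 over 14 genes of the citric acid cycle, with 10 lower. It was -0.45 over 17 electron carriers and the enzymes that feed them, with 11 lower, -0.66 over 8 carriers and pores of the mitochondrial membranes, with 5 lower, and -0.16 over 16 regulators of mitochondrial biogenesis, with 9 lower. Assembly factors of complex I had a median of -0.20 over 12 genes and those of complex IV -0.11 over 18. The sizes for complexes II, III and V were 2, 4 and 3 genes, with medians of 1.77, 0.05 and 0.18. Ndufab1, a complex I subunit outside the naming rule, had a difference of -0.24 (SE 0.65). Cytochrome c (Cycs) had one of -0.33 (SE 0.31), and the transcription factors Nrf1 and Gabpa had 0.03 (SE 0.31) and -0.39 (SE 0.35).

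Some markers of other cells moved with the comparison in HDM mice. The summed log2 level of 11 T cell markers was 2.38 to 3.17 on the IL-10- HDM arrays and 2.80 to 3.05 on the IL-10+ HDM arrays, with overlap and 7 of 11 detected on every array. That of 7 plasmablast markers, genes of antibody-secreting cells, was 7.03 to 8.26 on the IL-10- HDM arrays and 6.44 to 6.70 on the IL-10+ HDM arrays, without overlap. In control mice it was 6.26 to 6.77 in IL-10- cells and 6.35 to 7.62 in IL-10+ cells. Of the 7, 2 were detected on every array and none was below background on all. The sum follows Irf4, at 6.99, 7.12 and 8.24 on the IL-10- HDM arrays and 6.56, 6.32 and 6.57 on the IL-10+ HDM arrays (adjusted p 0.389). Igj, the joining chain of secreted antibody, was higher in IL-10+ cells, at 0.88 to 3.41 on the IL-10+ arrays and -6.24 to -2.95 on the IL-10- arrays, and was called in HDM mice (limma, adjusted p 0.0145) and averaged (0.00454). Mzb1, a chaperone of antibody assembly, was at 0.05, -1.69 and -1.08 on the IL-10+ HDM arrays and -5.90, -3.07 and -5.19 on the IL-10- HDM arrays, without overlap (adjusted p 0.31). Of the 6 tested, 3 had a higher and 3 a lower mean in IL-10+ cells of HDM mice. The sum of 8 dendritic cell markers, 2 of them below background everywhere, was 6.13 to 6.18 on the IL-10+ HDM and 6.25 to 6.55 on the IL-10- HDM arrays, without overlap. That sum follows Siglech, at 6.07 to 6.08 and 6.17 to 6.54, while 4 of the 5 tested had a higher mean in IL-10+ cells of HDM mice. The sums of 7 NK cell, 9 monocyte and 7 neutrophil markers overlapped between these groups. The monocyte sum follows Itgam, at 8.73 to 8.77 on the IL-10+ HDM and 8.51 to 8.94 on the IL-10- HDM arrays. In the same list Emr1 was at -0.68, -1.44 and -0.97 against -4.71, -4.46 and -6.10. The T cell marker Cd2 was at -0.51, -1.15 and -0.24 against -4.34, -4.88 and -5.87. Cd3g, Lck and Csf1r were also higher in IL-10+ cells without overlap, while others, such as Thy1 and Cd68, overlapped. Of all genes, 11.4% were higher and 11.2% lower without overlap in this comparison, so some such markers can arise in any list. The part of any of these markers in the differences of the members was not tested. In sorted populations, more cells of a kind and more RNA per cell cannot be told apart.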

How the data were processed

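The labels' protocols state that mRNA was isolated with magnetic beads, amplified as cDNA by a global PCR (SuperAmp) and labelled with Cy3. The arrays, of Agilent design 028005 with annotation on build mm9, were read by Feature Extraction 10.7.3.1, per the file headers. Scanner files as deposited hold intensity values (processed signal, mean signal, background median) and other values, which are flags of each spot. In the value table the authors deposited, each value is a ratio of the processed signal to the array's median. That was found by recomputation.

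From the deposited signals, log2 values were taken and the 75th percentile of each array subtracted, without spots marked as outliers, which left out 79 of 55681 probes. A probe had to be well above background on at least 3 of 12 arrays (37727 were), and the probe with the highest mean stood for its gene, which gave 24963 genes. limma 3.58.1 in R 4.3.3 was fitted with 1 mean for each of 4 groups (8 residual and 2.12 prior degrees of freedom), after a test on simulated data. Arrays give no counts, so their number limits the precision. No spot was saturated.

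The members, gene lists and naming rule were chosen with earlier results of these data known. The rule names, in each complex, the 2 members with the smallest p in the averaged comparison, the one with the smallest p in each HDM comparison and in the interaction, the Sdh genes, the subunit c genes and the paired isoforms. Ndufa5, Ndufs1, Ndufv1, ND3, Uqcr10, Atp5l and Ndufc2 were picked with their values in view. Alternatives were slide and replicate number as blocks, slide 1 alone, quantile normalization, normexp background (offset 50), the value table, other probe filters, the mean over probes, and leaving out each array. Leaving out arrays for the mitochondrially encoded genes was added after seeing the data.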

Additional observations from a re-analysis of the deposited data

How the results depend on the processing

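No member was called under any alternative, except Cox6b2 in the sort in HDM mice and the averaged sort, where leaving out 1 array in turn gave 0 to 1 calls. The direction of the member medians in HDM mice, for HDM in IL-10- cells and for the interaction held under every setting run. Left-out arrays gave -0.64 to -0.29, 0.22 to 0.68 and -0.73 to -0.30 for these 3. They gave -0.14 to 0.34 for the sort in control mice, -0.24 to 0.04 averaged, and -0.37 to 0.06 for HDM in IL-10+ cells, so the sign of these depended on 1 array. With slide as a block the median in HDM mice was -0.90. In that fit IL-10- control array 3 alone links the slides, so this value rests on that array. The value table gave -1.22 in HDM mice, 1.13 for HDM in IL-10- cells and -1.45 for the interaction; it also moved the median of all genes, to -0.64 in HDM mice, and the members less all genes stayed at -0.58. Quantile normalization gave -0.25 for that same difference.

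Among the named members, Sdhc turned from 0.03 to -0.066 with slide as a block, -0.30 with the value table, -0.061 as a mean over probes, and ranged from -0.18 to 0.26 when arrays were left out, with 5 of 12 below 0. Uqcrc2 was -0.10 with the value table, Sdhb 0.065 as a mean over probes and Uqcr11 ranged from -0.35 (without IL-10- HDM array 3) to 1.27 when arrays were left out.

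With the replicate block the number of calls stayed at 0 in each comparison and the median in HDM mice at -0.42, while calls over all genes went from 42 to 17 in HDM mice and from 67 to 36 averaged. Samples that share a number were correlated at -0.14 to 0.15 in their deviations, against -0.19 to 0.13 for other pairs, so the numbers were not taken as pairs.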
